A study of Mus musculus with 56 samples.

Results

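miR-296 and miR-298 are a pair of microRNAs encoded next to the imprinted gene Gnas on mouse chromosome 2. They were followed together with the Gnas mRNA in livers from which the microRNA miR-122 had been removed. The 3 members are the microRNAs mmu-mir-296 and mmu-mir-298, of 479 microRNAs listed, and the gene symbol Gnas, of 21888 gene symbols listed. They were chosen by their measured values, which were higher at day 45 after Cre than at day 0. For that reason day 45 against day 0 is given below as a description without a test, and every comparison with day 0 shares its uninjected livers with the choice.

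The labels give 129Sv/J as the strain of every sample; the methods also name purchased C57Bl/6 mice without saying which livers, if any, were theirs. The study counts replicates as mice for the floxed and wild-type small RNA, and each other library was likewise taken here as 1 animal. Floxed mice carry loxP sites around the miR-122 precursor and were left uninjected (day 0) or received an AAV serotype 8 vector (rAAV8) that drives Cre from the Ef1a promoter, which is not limited to hepatocytes. Small RNA was sequenced in 24 floxed livers, with 3 mice at each of days 0, 7, 14, 21 and 45 and 1 mouse at each of days 1, 2, 3, 10, 17, 25, 36, 100 and 200. It was also sequenced in 14 wild-type livers, with 2 animals at each of E14, E18, P1, P8 and P270 and 1 at each of P12, P17, P21 and P28 (E, embryonic day; P, postnatal day), and in 4 livers of LKO mice. LKO is a liver-specific miR-122 knockout made with Albumin-Cre, sampled in 2 mice without and 2 mice with additional Cre virus. Poly-A RNA was sequenced in 14 livers: 3 floxed mice at each of days 0, 21 and 45, 1 mouse at each of days 100 and 200, and 3 germline miR-122 knockout mice, which lack the microRNA in every cell from conception. The uninjected mice received no control vector, so the virus and the loss of miR-122 cannot be told apart in the floxed series. The floxed mice were adults when injected; their exact age, the age of the LKO and germline knockout mice and the sex of the animals are not given in the sources used here.

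Gnas encodes the alpha subunit of the stimulatory G protein (Gs), which couples hormone receptors such as that for glucagon to adenylyl cyclase and so to cyclic AMP, protein kinase A and the fasting programme of glucose release in hepatocytes. The locus is imprinted: several alternative promoters are used from only one parental copy, and from the paternal copy an antisense transcript, Nespas, is read across the upstream part of the cluster. miR-296 and miR-298 lie on the same strand as Nespas and are known from imprinting studies as microRNAs of the paternal copy. microRNAs recognise messenger RNAs mainly through their seed, the short stretch that starts at the second base of the mature strand.

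The mature sequences are shown because the seed determines which messages each strand can pair with; bases 2 to 8, the seed, are in capitals and the sequences are those of RefSeq (GRCm38.p6), 5′ to 3′.
mmu-miR-296-5p: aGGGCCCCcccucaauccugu
mmu-miR-296-3p: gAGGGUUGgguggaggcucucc
mmu-miR-298-5p: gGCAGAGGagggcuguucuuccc
mmu-miR-298-3p: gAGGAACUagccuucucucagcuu
The 4 strands have 4 different seeds, and 0 other mature mouse microRNAs in the RefSeq table share any of them. The table of small RNA values has 1 entry for each microRNA and does not separate the 5p from the 3p strand, so each value below is the sum over a hairpin.

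The hairpins are shown to place both strands within their precursor, with the mature 5p and 3p strands in capitals and the loop and flanks in lower case, also from RefSeq.
mmu-mir-296: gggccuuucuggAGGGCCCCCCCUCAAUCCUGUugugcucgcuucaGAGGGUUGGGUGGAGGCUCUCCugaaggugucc
mmu-mir-298: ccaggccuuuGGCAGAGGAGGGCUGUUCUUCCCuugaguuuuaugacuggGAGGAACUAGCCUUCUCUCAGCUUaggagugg
Both are identical to the mm9 genome, the build of the RNA-seq values. The mir-296 hairpin lies at chr2:174092548-174092626 and the mir-298 hairpin at chr2:174093005-174093086, both on the minus strand, with 378 bases between them. Neither overlaps an exon or intron of another gene in the GENCODE annotation of mm9, so both are intergenic there. Nespas is annotated at chr2:174106738-174120937 on the minus strand, so that both microRNAs lie downstream of its annotated end, mir-298 at a distance of 13651 bases. Gnas itself spans chr2:174109821-174172245 on the plus strand, starts 16734 bases from mir-298 and shares 11117 bases with Nespas. On the other side the nearest coding gene, Npepl1, is 143976 bases from mir-296.

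microRNA values are RPM, the reads of a microRNA scaled to a fixed total of reads other than miR-122, since miR-122 itself took up 59.2 to 73.3% of the reads at day 0 and 0.383 to 1.23% at day 45. The libraries held 21824 to 795615 such reads, so that 3 reads, the number that a count of 0 allows, correspond to between 3.77 and 137 RPM. The shallowest floxed library was day 45 replicate A with 79365 such reads. The deposited values of 3 libraries (1 each at E14, P28 and P270, the first and last of them replicates A) sum to a smaller total than those of the other 39, and calls that change without them are given both ways. Intervals on read counts cover counting error only.

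In the floxed livers miR-296 was a rare microRNA before Cre and was higher late. Uninjected livers held 18.3, 0 and 11.999 RPM (replicates A, B and C), from 4, 0 and 3 reads, where the 0 allows up to 11.9 RPM. At day 45 the values were 75.6, 82.8 and 56.9 RPM, from 6, 16 and 30 reads. All 3 mice at day 45 were above all 3 uninjected mice, as was so for 26.3% of the 259 microRNAs tested (limma called 21.2% of them); for the members this separation follows from how they were chosen. The means were 10.1 ± 9.32 RPM (SD, n = 3) and 71.8 ± 13.4 RPM (SD, n = 3), and the pooled reads differed 6.65-fold (95% counting interval 3.01 to 17.4). The mouse at day 100 had the highest value of the floxed livers, 297 RPM from 128 reads (95% interval 250 to 353), whereas the mouse at day 200 had 78.5 RPM from 49 reads (59.4 to 104), within the range of the counting intervals at day 45. Both were above all 3 uninjected livers, as were both values of miR-298 given below, and as was so for 38.2% of microRNAs. miR-122 made up 4.46% of the reads at day 100 and 19.1% at day 200.

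Between these ends the values of miR-296 spread widely among mice. Days 1, 2 and 3 had 0, 9.54 and 47.0 RPM, and the 3 mice at day 7 had 11.2, 19.9 and 8.68 RPM, so the single mouse at day 3 was above every mouse at day 7. At day 14 the values were 48.1, 30.2 and 3.81 RPM, the last of which was below uninjected replicates A and C. At day 21 they were 20.6, 83.9 and 18.8 RPM, where replicate B, with 36 reads, was at the level of day 45 and the other 2 mice were not. The single mice at days 10, 17, 25 and 36 lay between 33.1 and 49.8 RPM. The means at days 7, 14 and 21 were 13.3 ± 5.91, 27.3 ± 22.3 and 41.1 ± 37.0 RPM (SD, n = 3 each), and in the order of the means from day 0 to day 45 the ranges of every neighbouring pair of groups overlapped.

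miR-298 was rarer still in its mean at the start, and whether its course differed from that of miR-296 was not tested. Each uninjected liver had 1 read of miR-298, which is 4.49, 3.92 and 3.90 RPM. At day 45 the 3 mice had 12.6, 103 and 53.2 RPM, from 1, 20 and 28 reads. The means were 4.10 ± 0.337 RPM (SD, n = 3) and 56.4 ± 45.5 RPM (SD, n = 3), and the pooled 49 reads against 3 reads gave a ratio of 14.6 with a wide counting interval (4.72 to 73.4). The lowest mouse at day 45, replicate A, rests on a single read with an interval of 2.22 to 71.4 RPM that covers all uninjected values. Day 100 had 71.9 RPM from 31 reads and day 200 had 27.2 RPM from 17 reads.

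At day 21 replicates A and C of miR-296, at 20.6 and 18.8 RPM, were near the highest uninjected value of 18.3 RPM. Only replicate B, at 83.9 RPM, was well above it. miR-298 at day 21 stood close to the uninjected level in all 3 mice, with 6.86, 4.61 and 5.01 RPM from 3, 2 and 4 reads. It had been higher a week earlier, with 21.5, 40.1 and 7.61 RPM at day 14, and the single mouse at day 10 had 30.1 RPM. The 3 mice at day 14 were all above the 3 mice at day 21, a separation found by looking and not tested. Days 25 and 36 had 14.4 and 8.24 RPM, and the earliest days 1, 2 and 3 had 8.09, 4.90 and 14.5 RPM. Day 7 had 16.8, 0 and 11.6 RPM, where the 0 allows up to 9.96 RPM. The values at days 45, 100 and 200, at 12.6 RPM or more, were with the exception of day 45 replicate A above those of every mouse from day 17 to day 36.

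**Figure D1:**
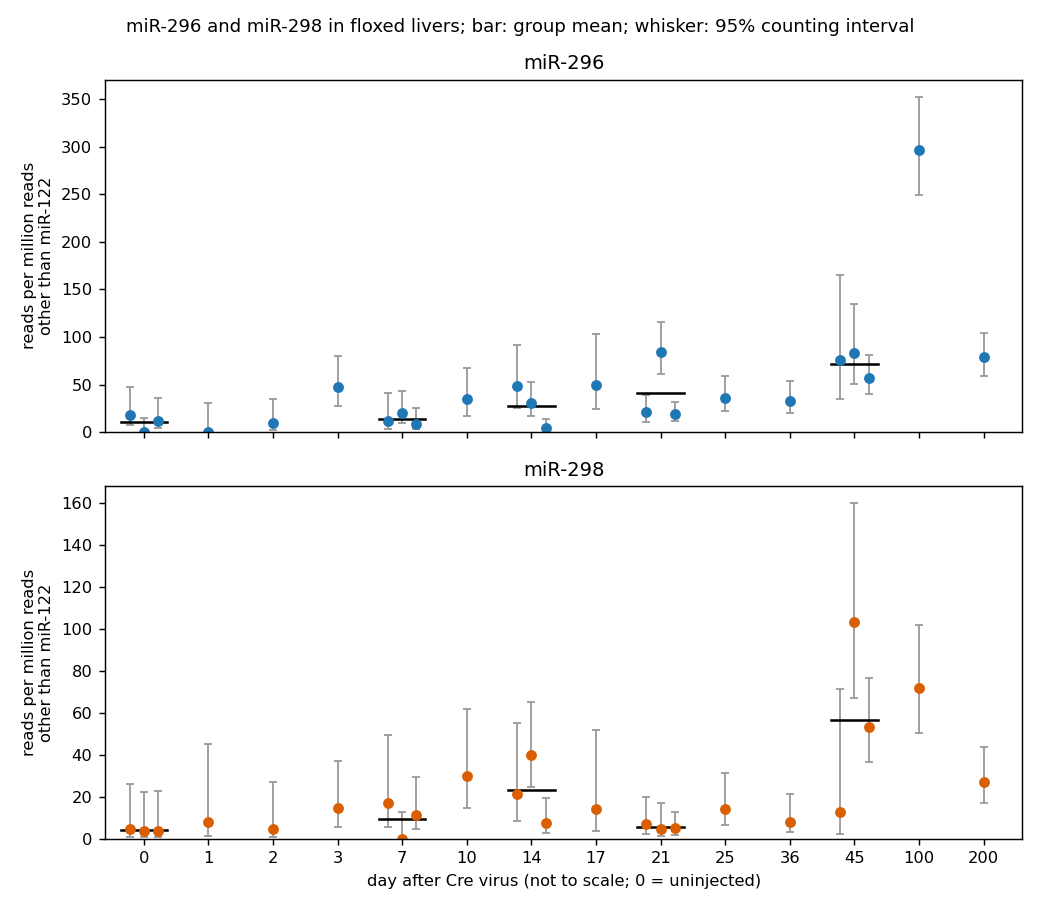
RPM (scaled to reads other than miR-122) for miR-296 (top) and miR-298 (bottom) in each of the 24 floxed livers, by day after Cre virus on an axis that is not to scale. Points are mice, whiskers are 95% counting intervals and black bars are means of groups of 3; miR-296 lies between 56.9 and 82.8 RPM in the 3 mice of day 45 and at 297 RPM at day 100, and miR-298 spreads from 12.6 to 103 RPM at day 45.

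The question of when the pair rises was tested in the libraries that the choice did not use. A straight line through the 16 livers of days 1 to 36 gave miR-296 a slope of 0.80 ± 0.36 log2 units (SE) per 10 days, which did not pass the threshold (adjusted p = 0.17, limma with Benjamini-Hochberg adjustment over 239 microRNAs, of which 11.7% were called) and was 0.41 without the day 1 liver, which had 0 reads. For miR-298 the slope was 0.04 log2 units per 10 days (adjusted p = 0.98). Days 100 and 200 against day 21 gave a log2 difference of 2.22 for miR-296 (SE 1.16, adjusted p = 0.25) and of 2.82 for miR-298 (SE 1.15, adjusted p = 0.10), in a comparison in which limma called 18.9% of microRNAs. For miR-298 both late livers were above all 3 livers of day 21, as they were for 30.1% of the microRNAs tested. For miR-296 day 200, at 78.5 RPM, was below day 21 replicate B, at 83.9 RPM, and without the day 100 liver the log2 difference was 1.26.

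Against the uninjected livers, which the choice had used, neither microRNA passed the threshold at day 7, 14 or 21. The log2 differences of miR-296 were 1.10 at day 7, 1.62 at day 14 and 2.39 at day 21 (adjusted p = 0.96, 0.40 and 0.20, limma with Benjamini-Hochberg adjustment), and limma called 0%, 1.54% and 5.41% of microRNAs on those days. Without uninjected replicate B, which had 0 reads, they were -0.23, 0.29 and 1.06. At day 7, where 0 were called, 14 microRNAs had an unadjusted p below 0.05. The log2 differences of miR-298 were 0.25, 1.97 and 0.33 (adjusted p = 1.00, 0.32 and 0.94). With the reads of miR-122 kept in the total, whose own share falls over these days, miR-296 was called at days 14 and 21 and miR-298 at day 14, and 149 of 249 microRNAs were called at day 21 in place of 14 of 259.

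Within the pair, miR-296 gave the larger share of reads in most adult livers. In the 15 floxed libraries from day 10 to day 200 the share of miR-296 among the reads of both had a median of 74.2%, from 33.3 to 94.7%, and was above 50% in 12 libraries. Of the 3 mice at day 45 it was 85.7% (95% Wilson interval 48.7 to 97.4), 44.4% (29.5 to 60.4) and 51.7% (39.2 to 64.1). Day 21 replicate B had 94.7% (82.7 to 98.5) and day 100 had 80.5% (73.7 to 85.9), so these intervals do not overlap those of day 45 replicates B and C. In the 8 livers from E14 to P8 the median was 46.0%, from 26.5 to 63.2%, and 3 of 8 were above 50%, with both replicates of P1 (62.6 and 26.5%) and of P8 (60.9 and 27.0%) far apart beyond counting error. Replicate A had the higher share at each of these ages, also at E14 (63.2 and 47.4%) and E18 (44.7 and 34.4%). What a letter marks is not given. All 4 LKO livers were above 50%, from 58.3 to 90.8%.

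**Figure D2:**
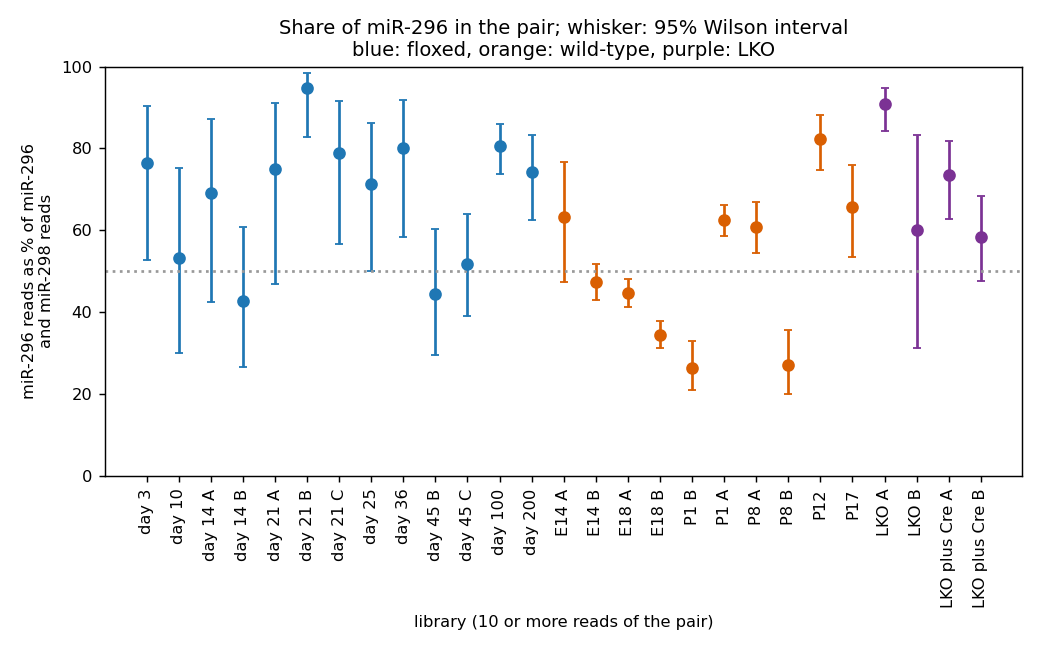
Reads of miR-296 as a percentage of the reads of miR-296 and miR-298 together, for the libraries with 10 or more reads of the pair. Blue points are floxed, orange points wild-type and purple points LKO livers, whiskers are 95% Wilson intervals and the dotted line marks 50%; replicates of P1 and P8 differ by more than their intervals.

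Both microRNAs were abundant in the developing liver and at or near 0 in the adult wild-type liver. miR-296 had 707 and 587 RPM at E14, 789 and 608 RPM at E18, 1653 and 736 RPM at P1 and 476 and 538.8 RPM at P8 (replicates A and B). It then stood at 421 RPM at P12 and 208 RPM at P17, and had 0 reads at P21, P28 and in both P270 livers. The last step is less sharp than it looks, because P21 and P28 hold few reads other than miR-122 and their floors were 120 and 87.6 RPM. P270 replicate B, with a floor of 11.7 RPM, carries the adult value, since replicate A has a floor of 137 RPM.

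miR-298 followed the same outline. It had 412.2 and 653 RPM at E14, 974 and 1157 RPM at E18, 989 and 2045 RPM at P1 and 306 and 1453 RPM at P8. At P12 and P17 it had 89.98 and 109 RPM, a steeper step down from P8 than that of miR-296. P21 had 1 read (40.2 RPM), and P28 and both P270 livers had 0.

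Against P270 the 4 youngest groups were higher for both microRNAs. Measured from the floor of 3 reads over the pooled P270 livers, 10.8 RPM, the mean of miR-296 was at least 60.0-fold higher at E14, at least 64.8-fold at E18, at least 111-fold at P1 and at least 47.1-fold at P8. For miR-298 the means were at least 49.4-fold, 98.9-fold, 141-fold and 81.6-fold higher at the same ages. The lower replicate alone was at least 68.3-fold higher for miR-296 at P1, and for miR-298 at least 91.8-fold at P1 and 28.4-fold at P8. In limma all 8 comparisons passed the threshold, with adjusted p of 0.0068, 0.0062, 0.0046 and 0.012 for miR-296 and of 0.0011, 0.0006, 0.00046 and 0.0016 for miR-298 (Benjamini-Hochberg). Of the 316 microRNAs tested, 46.8% were called at E14, 48.1% at E18, 37.3% at P1 and 31.3% at P8, and 41.5, 44.6, 35.4 and 30.4% were called higher, so that both belong to a large group. The median of all microRNAs tested was itself higher by log2 2.65, 3.12, 2.68 and 2.15. With each library centred on its median, 40.4, 35.2, 36.1 and 39.8% of the calls were higher at these ages, in place of 88.5, 92.8, 94.9 and 97% of them; all 8 values of the pair stayed higher, and miR-296 was no longer called at E18 (log2 5.48, adjusted p = 0.064) and P8 (log2 5.91, adjusted p = 0.059). All 8 livers from E14 to P8 were above both P270 livers, as they were for 36.1% of microRNAs. The call of miR-296 at P8 was lost without P8 replicate A, P8 replicate B or P270 replicate A (adjusted p = 0.060, 0.059 and 0.060, limma), and that at E14 was lost with the 3 short libraries left out (adjusted p = 0.056).

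The 4 juvenile livers together (P12 to P28) did not pass the threshold against P270, with adjusted p of 0.26 for miR-296 and 0.068 for miR-298 (limma, Benjamini-Hochberg; 10.4% of microRNAs called). This group mixes the 2 ages at which the pair was read with the 2 at which it was at or under the floor. Without the P28 liver, miR-298 was called (adjusted p = 0.00073).

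**Figure D3:**
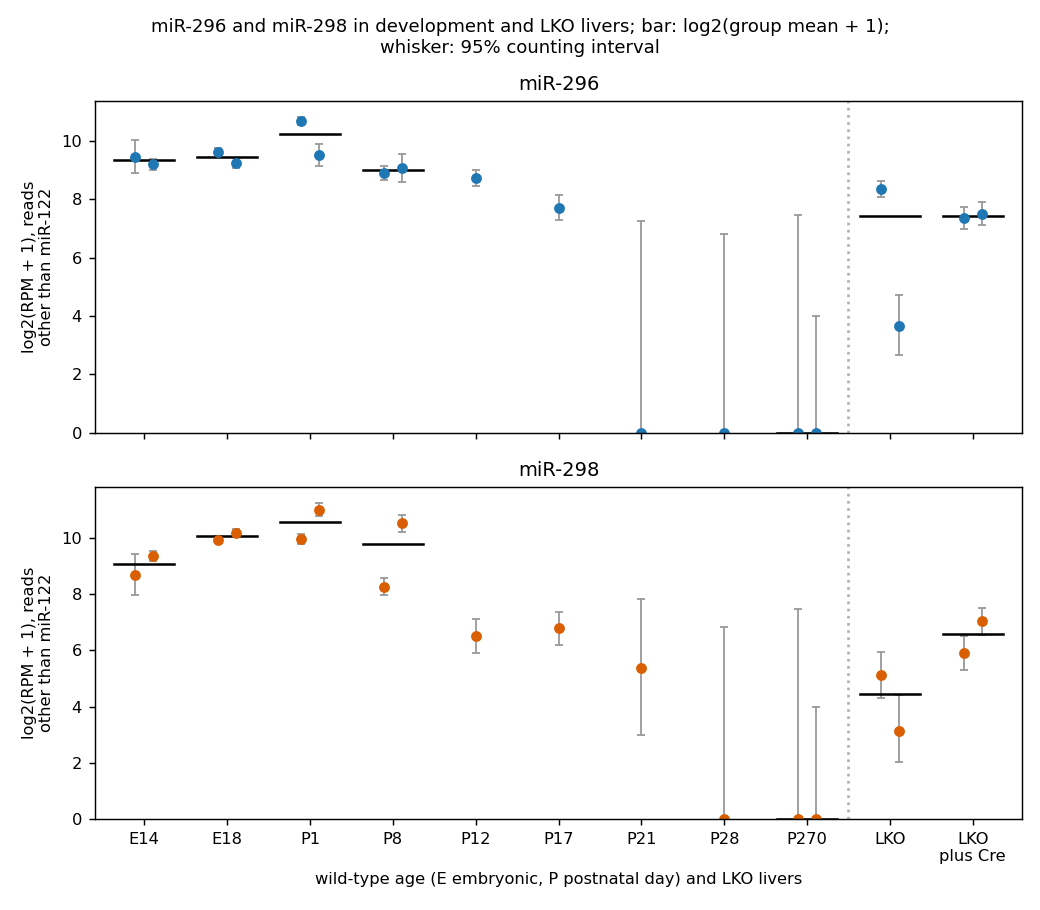
log2(RPM + 1) of miR-296 (top) and miR-298 (bottom) in each of the 14 wild-type livers by age and, right of the dotted line, in the 4 LKO livers. Points are animals, whiskers are 95% counting intervals and bars show the group mean on the same scale; both microRNAs are at 0 in the P270 livers, where the long whisker of replicate A shows how few reads it has.

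The LKO livers had lost miR-122 through Albumin-Cre, and 2 of them without any virus. Those 2 had 328 and 11.8 RPM of miR-296, and the 2 with additional Cre virus had 164 and 181 RPM. For miR-298 they had 33.4 and 7.84 RPM without and 59.4 and 129 RPM with the virus. LKO replicate B was the lowest for both microRNAs, and its 6 reads of miR-296 and 4 reads of miR-298 put it at 1.09 and 0.73 times the P270 floor of 10.8 RPM. Over the 4 livers the mean of miR-296 was 171 ± 129 RPM (SD, n = 4), at least 15.9-fold above P270, and that of miR-298 was 57.5 ± 52.4 RPM (SD, n = 4), at least 5.34-fold above. Without replicate B of the livers with the virus, the mean of miR-298 was 33.6 RPM.

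Both were called higher than at P270 (adjusted p = 0.034 for miR-296 and 0.025 for miR-298, limma with Benjamini-Hochberg adjustment), where 20.9% of microRNAs were called, all of them higher, and the median of all was higher by log2 1.22. The age of the LKO mice is not given and genotype goes with the group. Age and the loss of miR-122 therefore cannot be told apart in this comparison. All 4 livers were above both P270 livers as listed, as they were for 36.4% of microRNAs. The 0 of P270 replicate A allows up to 137 RPM, which is above all 4 values of miR-298 and the lowest of miR-296. These calls rest on few livers, and with each library centred on its median neither was made (log2 4.45 and 3.02, adjusted p = 0.10 and 0.15) and 47.1% of all calls were higher. Without P270 replicate A, P270 replicate B or LKO replicate A neither was called (adjusted p of 0.17, 0.11 and 0.12 for miR-296 and of 0.15, 0.088 and 0.078 for miR-298, limma). miR-296 was also not called without either liver with the virus (adjusted p = 0.071 without replicate A and 0.070 without replicate B), and miR-298 not without replicate B of them (adjusted p = 0.063). LKO livers with and without the virus did not differ past the threshold for either microRNA (adjusted p = 1.00 for both; 0% called, 4 microRNAs with an unadjusted p below 0.05). In reads pooled over livers miR-298 was 5.01 times as high with the virus as without (95% counting interval 2.80 to 9.55) and miR-296 1.26 times (0.96 to 1.66). miR-122 was 9.38 and 3.09% of the reads in the livers without and 0.837 and 1.11% in those with the virus.

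The levels of the pair were also set beside those at E18. The mean of miR-296 was 1.45% of its E18 mean at day 0, 10.3% at day 45, 26.9% at days 100 and 200 and 24.5% in the LKO livers. The late value is set by the mouse at day 100, since the mouse at day 200 alone was at 11.2%, near day 45. For miR-298 these were 0.385, 5.29, 4.65 and 5.40%. They fell to 3.09% at day 45 without replicate B, to 2.55% late without day 100 and to 3.15% in LKO livers without replicate B of those with the virus. The 53 listed microRNAs of the imprinted cluster on chromosome 12 (chr12qF1), summed, stood at 0.121, 15.8, 24.7 and 23.4% of their E18 sum. The fetal livers served here only as a scale and their difference from day 45 was not tested.

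The microRNAs with the course most like that of the pair were then listed. Over the 24 floxed livers the 5 highest Pearson correlations of log2(RPM + 1) with miR-296, among 257 microRNAs, were those of mir-382 (0.76), mir-434 (0.75), mir-409 (0.73), mir-200a (0.72) and mir-329 (0.71). For miR-298 they were mir-382 (0.74), mir-496 (0.69), mir-337 (0.66), mir-299 (0.65) and mir-300 (0.65). Of each 5, 4 and 5 are encoded in chr12qF1, which holds 33 of the 258 microRNAs tested (12.8%), and mir-200a belongs to a family known from epithelia. These livers include days 0 and 45, by which the pair was chosen, so that likeness to other microRNAs higher at day 45 is in part fixed by the choice. The pair itself had a correlation of 0.51, which placed miR-298 at rank 47 for miR-296. In the 14 wild-type livers the pair had 0.92, and the leading microRNAs were mir-193b, mir-134, mir-487b, mir-381 and mir-668 for miR-296 (0.97 to 0.99) and mir-433, mir-341, mir-300, mir-485 and mir-376c for miR-298 (0.95 to 0.99). Of these, all but mir-193b are in the chr12qF1 list, which holds 15% of the 320 microRNAs tested there. These livers share their depth and the scaling to reads other than miR-122 between all microRNAs, and at 0 or 1 read the values of the pair are coarse, so the coefficients are a description.

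Gnas, the coding gene of the locus, was expressed throughout and changed little. Uninjected livers had 209, 234 and 203 FPKM (fragment counts per length and depth, scaled to the upper quartile by the authors), day 21 had 228, 215 and 238 FPKM and day 45 had 223, 269 and 289 FPKM. Day 100 had 279 FPKM, day 200 had 250 FPKM, and the 3 germline knockout livers had 295, 308 and 222 FPKM. Day 45 replicate A lay inside the range of the uninjected livers and the other 2 above it, so the groups overlapped, and the rise for which Gnas was chosen is one of means: 215 ± 15.9 against 260 ± 33.6 FPKM (SD, n = 3 each), a log2 difference of 0.27 on the log2(FPKM + 1) scale. Of the 11354 genes tested, 40.5% had all 3 day 45 livers above all 3 uninjected ones, and Gnas was not one of them. The median log2 difference of all genes was 0.20, and with each library centred on its median the difference of Gnas was -0.02. Settings moved Gnas in both directions: its log2 difference at day 21 from day 0 ranged from -0.03 to 0.21 over the other settings tried.

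No comparison of Gnas between groups outside that choice passed the threshold, with the spread taken from the fit of all RNA-seq libraries. Days 100 and 200 against day 21 gave a log2 difference of 0.22 (adjusted p = 0.47, limma with Benjamini-Hochberg adjustment; 12.7% of genes called), and the germline knockout against day 21 gave 0.26 (adjusted p = 0.22; 20% called). The centring of libraries turned the first to -0.10. Both late livers were above all 3 livers of day 21, as they were for 49.2% of genes, and above all 3 uninjected livers, as they were for 52.9%. With the uninjected livers as the reference, the log2 differences were 0.08 at day 21 (adjusted p = 0.86; 7.62% called), 0.30 at days 100 and 200 (adjusted p = 0.25; 31.6% called) and 0.34 in the germline knockout (SE 0.16, adjusted p = 0.12; 33.8% called). Without germline knockout replicate C, at 222 FPKM the lowest of its group, Gnas was called in the knockout against day 0 (log2 0.49, adjusted p = 0.010) and against day 21 (log2 0.41, adjusted p = 0.026).

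**Figure D4:**
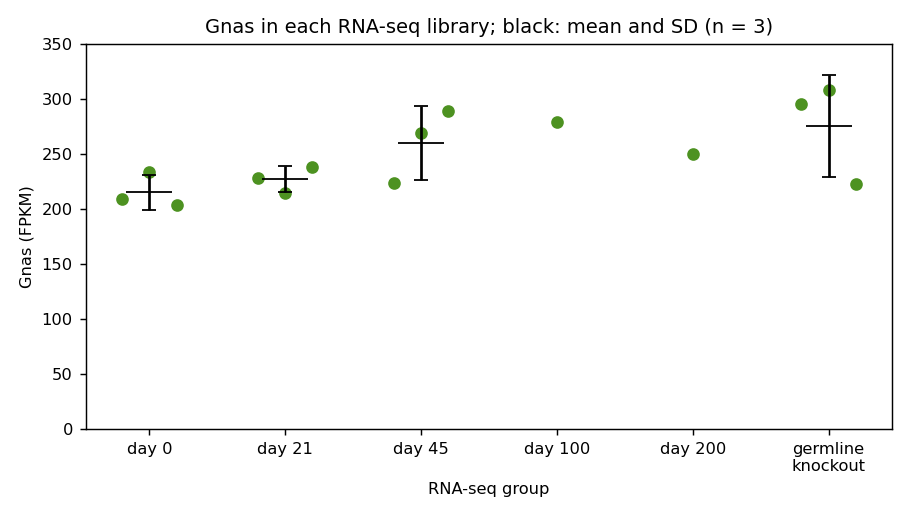
FPKM of Gnas in each of the 14 RNA-seq libraries by group, on an axis that starts at 0. Green points are mice and black marks give the mean and SD of groups of 3; the day 45 livers, at 223 to 289 FPKM, overlap the uninjected livers, at 203 to 234 FPKM, and 1 of the 3 germline knockout livers lies at 222 FPKM.

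The antisense transcript Nespas was listed at or near 0 in all livers. The 3 day 45 livers had 0.023, 0.043 and 0.053 FPKM and the uninjected ones 0.017, 0.019 and 0, all under the minimum of 1 FPKM and therefore not tested. FPKM do not keep the number of fragments, so how many reads these values stand for is unknown. Poly-A selection also removes the precursors of microRNAs that carry no tail. Whether the counting used the strand is not stated, so reads in the 11117 bases that Nespas and Gnas share cannot be told apart. Of the other cluster transcripts looked for, Nesp and Gnasxl had no symbol of their own, so the 1 entry of Gnas may hold several of the promoters' products.

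The genes around Gnas were looked at next. Within 1 Mb of it, 27 other genes were listed and 8 were tested: Atp5e, Ctsz, Npepl1, Rab22a, Slmo2, Stx16, Th1l and Vapb. limma called 0 of these 8 in each of the comparisons of day 21, day 45 and the late livers with day 0, where 7.62%, 26.7% and 31.6% of all genes were called, and 1 of 8 had an unadjusted p below 0.05 in each. Over 8 genes a count of 0 is too few to be read against these shares. The nearest to a call was Stx16, a syntaxin of vesicle traffic named after its values were seen, with 7.27 to 8.39 FPKM at day 0 and 9.59 to 14.7 FPKM at day 45, ranges that do not overlap (log2 0.61, adjusted p = 0.055, limma). The median log2 difference of the 8 at day 45 was -0.08, beside 0.20 for all genes. In the germline knockout 1 was called: Slmo2, a gene of mitochondrial lipid transfer, fell from 29.0 ± 1.57 to 15.8 ± 8.16 FPKM (SD, n = 3 each; log2 -0.95, SE 0.26, adjusted p = 0.016, limma), in a comparison in which 33.8% of all genes were called and 14.5% were called lower.

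The other genes of the Gs to cyclic AMP pathway were looked at because Gnas is its central subunit. Of 72 genes listed (receptors, cyclases, kinases, phosphodiesterases, CREB factors and their targets) 43 were tested. Of these, 2 were higher and 0 lower at day 21, at day 45 5 were higher and 1 lower, at days 100 and 200 10 were higher and 1 lower, and in the germline knockout 9 were higher and 1 lower. Calls were made for 4.65, 14.0, 25.6 and 23.3% of the list, against 7.62, 26.7, 31.6 and 33.8% of all genes. Of all genes 6.2% were higher and 1.42% lower at day 21, 23.7 and 2.99% at day 45, 28.4 and 3.21% at days 100 and 200, and 19.3 and 14.5% in the knockout. The median log2 difference of the list was 0.28 at day 45, beside 0.20 for all genes, and 0.30 at days 100 and 200, beside 0.31.

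Among the 6 receptors tested, 0 were called at day 21 (1 with an unadjusted p below 0.05), 1 at day 45, 2 at days 100 and 200 and 3 in the knockout, all higher. The receptor called at day 45 was Adora2a, an adenosine receptor, with 0.685 ± 0.119 FPKM at day 0 and 2.16 ± 0.790 FPKM at day 45 (SD, n = 3 each; log2 0.88, adjusted p = 0.016, limma); it and the other genes given for small counts here were named after their values were seen. In the knockout Adora2a was called with a log2 difference of 0.96. Among the 19 cyclases, kinases and phosphodiesterases, 2, 4, 6 and 3 were called in the same order, all higher. At day 45 these were the cyclases Adcy4, Adcy6 and Adcy7 and the phosphodiesterase Pde1a, with log2 differences of 0.90, 0.92, 1.78 and 0.95. The most changed was Adcy7, an adenylyl cyclase known from blood cells, which rose from 0.746 ± 0.165 FPKM at day 0 to 3.01 ± 0.101 at day 21 and 5.27 ± 2.51 at day 45 (SD, n = 3 each; log2 1.204 and 1.779, adjusted p = 0.014 and 0.00065, limma). It was at 2.76 ± 1.01 FPKM in the germline knockout (log2 1.08, adjusted p = 0.0080). Of the 5 macrophage and 5 lymphocyte markers given below, 1 and 4 were called higher at day 21, 5 and 5 at day 45, and 3 and 2 in the knockout, and their part in this was not tested.

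Of the 18 CREB factors and targets tested, 0 were called at day 21 (3 with an unadjusted p below 0.05), 0 were higher and 1 lower at day 45, 2 higher and 1 lower at days 100 and 200, and 3 higher and 1 lower in the knockout. The gene called lower at day 45 was G6pc, which encodes the catalytic subunit of glucose-6-phosphatase, the last step of glucose release. It fell from 396 ± 146 FPKM at day 0 to 62.4 ± 15.6 FPKM at day 45 (SD, n = 3 each; log2 -2.59, SE 0.59, adjusted p = 0.0065, limma) and was at 172 ± 160 FPKM at day 21 (adjusted p = 0.13). In the knockout it was at 215 ± 58.4 FPKM (log2 -0.84, adjusted p = 0.27). Pck1, Tat and Igfbp1, the 3 other most abundant genes of the list and likewise induced in fasting, did not pass the threshold in any of the 4 comparisons: their log2 differences at day 45 were 0.41, -0.32 and -1.10 (adjusted p = 0.55, 0.55 and 0.38). Those in the knockout were 0.35, 0.34 and 2.10 (adjusted p = 0.53, 0.44 and 0.067, limma). In the knockout Per1, a clock gene, rose to 12.2 ± 8.26 from 1.72 ± 1.17 FPKM (log2 2.03, adjusted p = 0.014), Nr4a1, an early-response nuclear receptor, to 23.5 ± 14.9 from 6.80 ± 7.65 FPKM (log2 2.08, adjusted p = 0.039) and Sik1, a kinase induced by cyclic AMP, to 18.1 ± 7.26 from 5.35 ± 1.69 FPKM (log2 1.54, adjusted p = 0.0067). The gene called lower there was Crem, a CREB family factor named after its values were seen, with 15.6 ± 4.19 FPKM at day 0 and 8.53 ± 2.62 FPKM in the knockout (SD, n = 3 each; log2 -0.81, adjusted p = 0.033, limma). The time of day and the feeding state at harvest are not given in the sources used here, and their part in these genes was not tested.

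The other alpha subunits were compared with Gnas. Of 12 listed, 7 were tested, of which 5 were higher at day 45, 4 at days 100 and 200, 3 in the germline knockout and 0 at day 21 (3 with an unadjusted p below 0.05), and 0 were lower. Over all genes 23.7, 28.4, 19.3 and 6.2% were called higher in these comparisons. Gnai2, an inhibitory subunit named here after its values were seen, rose from 41.9 ± 2.56 FPKM at day 0 to 96.8 ± 11.4 FPKM at day 45 and 96.7 ± 32.9 FPKM in the knockout (SD, n = 3 each; log2 1.18 and 1.12, adjusted p = 0.0026 and 0.0038, limma). The median log2 difference of the 7 was 0.57 at day 45, beside 0.27 for Gnas, and 0.18 in the knockout, beside 0.34 for Gnas. At day 45 Gnai3, another inhibitory subunit named after its values were seen, was below Gnas, at 0.11. With each library centred on its median fewer of these calls were made: of the alpha subunits 1 was higher at day 45, 1 at days 100 and 200 and 3 in the knockout, where 1 was then lower. Of the Gs to cyclic AMP list 1 was then higher at day 21, 2 at day 45, 3 at days 100 and 200 and 8 in the knockout, and 0, 2, 2 and 4 were lower. Of all 11354 genes tested, 473, 1401, 1530 and 2121 were then higher in the same order. Those lower were 198, 928, 1316 and 2083. In the 2 lists, Gnai2, Adcy7, Pde1a and G6pc were among the genes still called at day 45, and Adora2a, Adcy4 and Adcy6 were not. Markers of other cell types, given below, were called higher in part of the same comparisons, and their part in the calls of alpha subunits was not tested.

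**Figure D5:**
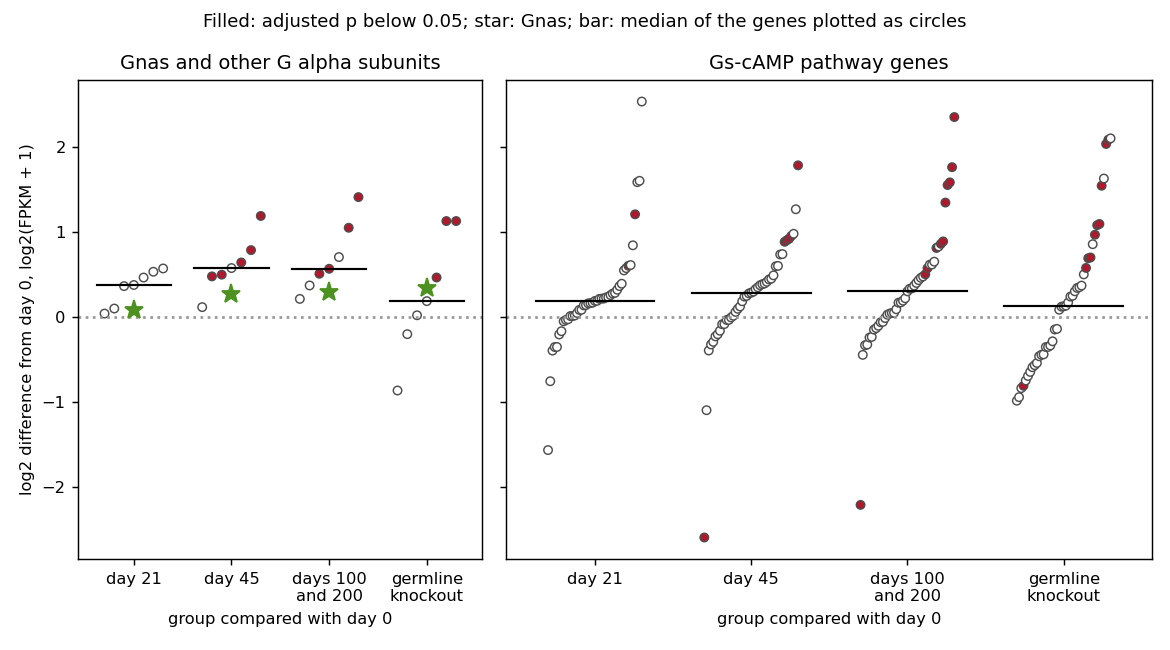
log2 difference from day 0, on the log2(FPKM + 1) scale, of the 7 other alpha subunits tested with Gnas as a green star (left) and of the 43 Gs to cyclic AMP genes tested (right), in each of 4 groups. Circles are genes in order of their value, filled where the adjusted p was below 0.05, and bars are the medians of the circles; Gnas is at 0.27 at day 45 and G6pc is the lowest circle there, at -2.59.

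Messages that the pair has been reported to repress in other tissues were also looked up. Of Hgs, Nanog, Bbc3 and Bace1, 3 were tested (Nanog was listed at 0), and 0 were called in any of the 4 comparisons with day 0 (limma; 1 had an unadjusted p below 0.05, at day 21), where 7.62, 26.7, 31.6 and 33.8% of all genes were called, shares from which 0 of 3 cannot be told apart. At day 45 their log2 differences were 0.11 for Hgs, which sorts receptors in endosomes (adjusted p = 0.74), -0.03 for Bbc3, a promoter of apoptosis (adjusted p = 0.96), and -0.04 for Bace1, a protease of the amyloid precursor (adjusted p = 0.94, limma). The shares of 11005 tested genes whose longest annotated 3′ untranslated region holds the complement of the seed followed by A were 2.71% for miR-296-5p (GGGGCCCA), 1.41% for miR-296-3p (CAACCCTA), 6.26% for miR-298-5p (CCTCTGCA) and 2.66% for miR-298-3p (AGTTCCTA). The median log2 differences of these genes at day 45 were 0.35, 0.19, 0.25 and 0.18, beside 0.20 for genes without each site. In the germline knockout they were 0.27, 0.01, 0.02 and -0.22, beside 0.01 to 0.03 for the others. The search covered the transcribed strand. A match of letters is a description, and these medians were not tested.

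Markers of cells other than hepatocytes were also looked at. At day 45 all 5 listed macrophage markers, all 6 stellate and fibroblast markers, all 5 cholangiocyte markers and all 5 lymphocyte markers were called higher, and 2 of 5 endothelial markers, beside 23.7% of all genes called higher. In the germline knockout 3 of 5 macrophage, 4 of 6 stellate and fibroblast, 5 of 5 cholangiocyte, 2 of 5 lymphocyte and 0 of 5 endothelial markers were called higher and 1 endothelial marker lower, beside 19.3% of all genes higher and 14.5% lower. The sum of the cholangiocyte markers was 46.1 to 59.2 FPKM at day 0, 137 to 203 FPKM at day 21, 405 to 1330 FPKM at day 45, 1920 to 2920 FPKM at days 100 and 200 and 551 to 794 FPKM in the germline knockout. In every group this sum was mostly Spp1, with means of 46.9, 165, 765, 2360 and 590 FPKM in the same order, and at day 21 2 of the 5 were called (Epcam and Spp1), beside 7.62% of all genes. That of the macrophage markers was 160 to 271 FPKM at day 0, 372 to 481 FPKM at day 21, 538 to 607 FPKM at day 45 and 205 to 591 FPKM in the knockout, where it overlapped day 0. The lymphocyte and endothelial sums were already as high at day 21 (21.5 to 34.6 and 58.5 to 73.4 FPKM) as at day 45 (21.0 to 27.3 and 64.4 to 77.2 FPKM), up from 3.99 to 9.26 and 21.7 to 50.3 FPKM at day 0. The lymphocyte list includes Ptprc, a gene of leukocytes in general and not of lymphocytes alone. Its means were 2.76 FPKM at day 0, 10.1 FPKM at day 21 and 10.4 FPKM at day 45. The neuroendocrine markers, looked at because imprinted Gnas products are known from such cells, summed to 0.331 to 0.497 FPKM at day 0 and 0.755 to 0.857 FPKM at day 45, with 0 of 5 at the minimum for a test. Of the 6 hepatocyte markers, 5 were tested and 0 were called at day 45 (1 with an unadjusted p below 0.05), beside 26.7% of all genes, a share from which so few genes cannot be told apart. Alb was listed at 0 in all livers and Serpina1a at 0 in all of days 0, 21 and 45, which for such abundant liver genes can be a failed estimate, so the count rests on Apoa1, Ttr, Cyp2e1 and Cps1. At days 100 and 200 Apoa1 was called lower (log2 -0.94, adjusted p = 0.036, limma), beside 3.21% of all genes. Serpina1a, at 1286 to 2036 FPKM in the knockout, was called higher there, beside 19.3% of all genes. The sum of the 6 was 25355 to 27968 FPKM at day 0 and 19263 to 25221 FPKM at day 45. The part of these cells in the levels of miR-296, miR-298 and Gnas was not tested, and in such bulk RNA a larger number of cells and more RNA per cell cannot be told apart.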

How the data were processed

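Small RNA of 42 livers and poly-A RNA of 14 livers were used, each taken as 1 animal and grouped by the labels. The authors aligned small RNA reads to miRBase mouse microRNAs with Bowtie 0.12.7, allowing mismatches, and deposited RPM with 1 added to every value. The 1 was subtracted here and values were rescaled to reads other than miR-122 (21824 to 795615 per library). In each library all low values then lay within 0.1 RPM of whole multiples of the smallest step, which was taken as 1 read; read counts given here are inferred in this way. For RNA-seq the authors aligned reads to mm9 and deposited FPKM from Cufflinks 2.2.1, scaled to the upper quartile. FPKM keep no depth. Rows of the 224 symbols with several rows were summed, and 3 empty columns were not used.

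Linear models were fitted in limma 3.58.1 (R 4.3.3, moderated with a trend). They took log2(RPM + 1) for microRNAs whose mean reached 10 RPM and log2(FPKM + 1) for genes whose mean reached 1 FPKM, with Benjamini-Hochberg adjustment over all features and a threshold of 0.05. The fits cover days 0, 7, 14, 21, 45 and days 100 and 200 as 1 group, a line through days 1 to 36, development with LKO, and RNA-seq. They were tested on simulated data. Shares have 95% Wilson intervals, ratios of reads exact binomial ones. Pseudocounts, filters, scalings, a replicate block and each library left out were tried as alternatives. Same-letter replicates of the wild-type groups deviated together in all 10 pairs of groups (r from 0.12 to 0.51, each over 0.1), and r was at most 0.07 in the 11 pairs with LKO (from -0.32); what a letter marks is not given in the sources used here. The members and the gene lists were chosen with earlier results of these data known. Named were the 3 members, called neighbours within 1 Mb, of the Gs to cyclic AMP list the 4 most abundant genes and the 5 largest changes called at day 45 or in the knockout, and the 5 features most correlated with each member; Stx16, Adora2a, Adcy4, Adcy6, Pde1a, Crem, Gnai2 and Gnai3 were named after their values were seen. Tables were made with pandas 2.3.3 and numpy 2.4.6 in Python 3.11.15, intervals with scipy 1.17.1 and figures with matplotlib 3.10.9.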

Additional observations from a re-analysis of the deposited data

How the results depend on the processing

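For 28 tests on the members, 194 values were obtained under other settings; 172 kept direction and side of the threshold, 9 lost the call, 6 gained one and 7 changed sign. Day 45 against day 0, and Gnas at days 100 and 200 against day 0, are not among the 28, and 2 sign changes of Gnas there add to the 7. Of 165 values with 1 library left out, these were 143, 12, 3 and 7. Values are log2 differences. Centring each library on its median turned Gnas to -0.029 at day 21, -0.020 at day 45, -0.13 at days 100 and 200 against day 0 and -0.10 against day 21, and miR-298 to -0.18 at day 7, -0.37 at day 21 and a slope of -0.014; pseudocounts of 0.1 and 10 turned miR-298 to -0.63 at day 7 and a slope of -0.025. Calls of miR-296 were lost with centring at E18 (5.48), P8 (5.91) and in LKO livers (4.45), without the 3 short libraries at E14 (9.20) and in LKO livers (6.73), and in LKO livers also at a pseudocount of 10 (3.65) and with no filter (6.73). That of miR-298 in LKO livers was lost with centring (3.02) and a pseudocount of 10 (2.39). With miR-122 reads in the total, miR-296 was called at days 14 (2.31) and 21 (3.25) and for its slope (1.07), and miR-298 at day 14 (2.73). miR-298 was called at P12 to P28 without the short libraries (6.22) and at days 100 and 200 against day 21 at a pseudocount of 10 (1.84, adjusted p = 0.042, limma). Beyond the changes that follow from each setting's own construction, the cause was not tested.

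With 1 library left out, Gnas in the germline knockout ranged from 0.25 to 0.49 against day 0 and from 0.18 to 0.41 against day 21. miR-296 ranged from 5.56 to 7.90 in LKO livers, from -0.93 (without LKO replicate B) to 3.76 between LKO livers with and without virus, from 8.90 to 9.08 at P8 and from -0.23 (without day 0 replicate B) to 1.91 at day 7. miR-298 ranged from 4.81 to 5.79 in LKO livers, 3.96 to 6.22 at P12 to P28, -0.52 to 1.55 at day 7 (negative without replicate A or C) and -0.14 to 0.13 for its slope (negative without day 2, day 7 replicate B or day 25). A lone sample left in a group was assumed to vary like the others.

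Replicate letters do not pair the floxed or RNA-seq mice throughout, where same-letter deviations correlated from -0.25 to 0.34 and -0.45 to 0.50; in RNA-seq days 21 and 45, not compared here, had 0.27, 0.24 and 0.50; the wild-type livers are described with the processing. A replicate block changed no call of a member (adjusted p = 0.17 for Gnas in the knockout, 6.93e-05 for miR-296 at E14 and 0.00041 in LKO livers, limma) and moved the genes called from 865 to 467 at day 21 and from 2267 to 947 for the knockout against day 21.

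Counts of calls moved over 1.5 times elsewhere. Without the short libraries they went from 148 to 83 at E14 and from 66 to 40 in LKO livers. With miR-122 reads they were 146 (in brackets the count as reported, 4) at day 14, 149 (14) at day 21, 113 (28) for the slope, 152 (66) in LKO livers, 62 (99) at P8 and 6 (33) at P12 to P28. Centring gave 1, 7 and 10 for the first, second and last of these and a pseudocount of 10 gave 2, 9 and 18. The log2 of day gave 16 for the slope, and a pseudocount of 0.1 gave 22 (49) at days 100 and 200 against day 21. A minimum of 5 FPKM gave 484 genes (865) at day 21, 1679 (3592) at days 100 and 200, 2431 (3833) in the knockout and 472 (1441) at days 100 and 200 against day 21. No filter gave 5816 at days 100 and 200 and 2897 for these against day 21, for which centring gave 573 and quantile normalization 646; the latter gave 531 at day 21. At day 7, where 0 were called, 1 was called under 4 settings, and 1 for the virus in LKO livers with no filter.

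The share of calls that were higher fell on centring from 81.4 to 70.5% at day 21, 88.8 to 60.2% at day 45, 89.8 to 53.8% at days 100 and 200 and 95.1 to 73.8% for the latter against day 21 in RNA-seq, and from 93.9 to 47.9% for days 100 and 200 against day 21 and 100 to 70% at P12 to P28 in microRNAs. A minimum of 50 RPM left out miR-298 in the floxed fits and both from the slope, and RPM over all reads left out miR-298 from the slope. Count models on reads recovered from RPM were not run. Depth limits P21, P28 and P270 replicate A most, where 3 reads are 120, 87.6 and 137 RPM; P21 and P28 have no second library.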

Other observations

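The 5 genes whose levels were most like those of Gnas over the 14 RNA-seq libraries, among 11353 genes, were Grina (Pearson r of log2(FPKM + 1) 0.96), Lmbr1l (0.95), Trip6 (0.95), Plbd2 (0.95) and Xrcc1 (0.95). Trip6 encodes an adaptor protein of focal adhesions and Xrcc1 a scaffold of DNA single-strand break repair. The 14 libraries share their scaling and the shift of all genes between groups, so these coefficients are a description.

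The microRNAs of the Igf2 locus, also imprinted, had 0 reads at day 0, which allows up to 11.9 to 13.9 RPM in a library, and a mean sum of 201.5 RPM at day 45, 4441 RPM at days 100 and 200 and 4180 RPM in the LKO livers, which are 3.54, 78.0 and 73.4% of their E18 mean. The day 45 livers had 113, 481 and 9.52 RPM, and without replicate B their mean was 61.5 RPM. LKO replicate B had 53.0 RPM, beside 3912 to 7143 RPM in the other 3 LKO livers.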
